A study of Mus musculus with 4 samples.

Results

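The genes described here encode the simple keratins, vimentin and the nuclear lamins of sorted mouse blood stem cells, compared between NHD13 and wild-type (WT) marrow. They are the 8 genes Krt8, Krt18, Krt7, Krt19, Krt10, Vim, Lmna and Lmnb1, taken by symbol from 24016 gene symbols in the count tables. Each gene was read from the RefSeq transcript with the highest total count over the 4 libraries, a choice that does not use the difference between genotypes. The 8 genes were chosen by their measured difference between NHD13 and WT in these same libraries, Krt8 and Krt18 foremost. Their differences are therefore a description, and an adjusted p given for any of them only places it in the fit over all genes and supports nothing.

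One group was 2 libraries from NHD13+ Tg mice, a transgenic model of myelodysplastic syndrome that expresses the NUP98-HOXD13 fusion. The other group was 2 libraries from WT mice. Mice of both groups were C57BL/6 at 4 months of age, and bone marrow cells of both were sorted as lineage-negative cells with CD150, c-Kit and Sca-1 but without Flt3 and CD34. The labels name no promoter for the transgene and do not say whether a library came from 1 animal or from a pool. The spread behind every SD and p-value is the one between these libraries and may be technical.

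Intermediate filaments are cytoskeletal ropes built from a large family of coiled-coil proteins. Keratin filaments assemble from obligate pairs of a type I and a type II keratin, and Krt18 (type I) with Krt8 (type II) is the pair of simple epithelia. Krt7 (type II) and Krt19 (type I) are further simple-epithelial keratins, while Krt10 (type I) belongs to the upper layers of the epidermis. Vim encodes vimentin, the type III filament of mesenchymal and blood cells, and Lmna and Lmnb1 encode an A-type and a B-type lamin of the meshwork under the nuclear envelope.

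Krt8 and Krt18 are neighbours on mouse chromosome 15, in opposite orientation, with no protein-coding gene between them in the GENCODE M21 annotation of GRCm38. Because both genes fell together in NHD13 cells, the sequences around their RefSeq starts are shown, from 250 bases before the start to 10 bases after it. They are RefSeq sequences of build GRCm38.p6, from chr15:102004333-102004592 on the minus strand for Krt8 and chr15:102027966-102028225 on the plus strand for Krt18, read 5′ to 3′. Capitals mark matches to TATAA on either strand.
Krt8: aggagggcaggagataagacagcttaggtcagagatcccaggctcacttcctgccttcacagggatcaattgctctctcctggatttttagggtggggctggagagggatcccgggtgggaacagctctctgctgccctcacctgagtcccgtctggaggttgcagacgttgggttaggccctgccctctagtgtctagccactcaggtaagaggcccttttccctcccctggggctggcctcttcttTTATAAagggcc
Krt18: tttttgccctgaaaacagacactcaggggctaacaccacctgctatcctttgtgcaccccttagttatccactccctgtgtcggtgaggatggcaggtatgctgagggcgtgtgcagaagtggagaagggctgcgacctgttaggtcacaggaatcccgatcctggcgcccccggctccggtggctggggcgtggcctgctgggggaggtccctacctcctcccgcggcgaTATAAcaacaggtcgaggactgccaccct
A TATAA match began 2 bases before the annotated start in Krt8, where matches on the opposite strands overlap, and 19 bases before it in Krt18. Of 32851 windows of this length around RefSeq starts, 23.3 percent hold TATAA. Each of 4 other motifs, searched on both strands, was absent from the letters of both windows. The Sp1-type box GGGCGG is in 33.4 percent of all windows. The box CCAAT is in 34.6 percent. The AP-1 motif TGANTCA is in 7.03 percent. The Hox and Pbx motif TGATTNAT is in 2.94 percent. The GC content was 57.7 percent for Krt8 and 60.8 percent for Krt18.

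Depth, summed over the transcripts used, was 35025974 and 48423689 counts in NHD13 and 42664018 and 37070939 in WT. All 8 genes passed the filter on low counts and were among 14853 genes tested. Genes of stem cells and of the gate were present in every library, with Kit at 991 and 1122 CPM (counts scaled to a common library total) in NHD13 and 1130 and 1271 CPM in WT, and Slamf1, which encodes CD150, at 143 and 117 CPM in NHD13 and 119 and 134 CPM in WT. Of the 8 genes of that list tested, edgeR called 0 higher and 1 lower, where it called 2.22 percent of all genes lower. The call was Hlf, a stem cell transcription factor gene. It fell to 113 and 71.0 CPM in NHD13, against 284 and 320 CPM in WT (log2 fold change -1.72 ± 0.24, adjusted p 0.0373). Ly6a, which encodes Sca-1, was at 131 and 77.7 CPM in NHD13 and 273 and 200 CPM in WT (adjusted p 0.0921). Cd34, whose protein the sort excluded, was at 51.6 and 21.4 CPM in NHD13 and 120 and 138 CPM in WT. Flt3, likewise excluded, was at 59.0 and 4.33 CPM in NHD13 and 10.4 and 15.4 CPM in WT. DESeq2, another test, called Hlf, Ly6a and Cd34 lower, where it called 9.25 percent of all genes lower. Hoxd13, a partner gene of the transgene, had 65 and 78 counts in NHD13 and 14 and 3 in WT. WT library 1 stood apart in keratin, epithelial and stroma genes. The 47 keratin genes outside the 8 described here summed to 6.58 and 6.31 CPM in NHD13, against 80.3 CPM in WT library 1 and 5.17 CPM in WT library 2, and WT library 1 held 82.8 percent of their counts. A list of 12 stroma genes summed to 38.4 and 39.5 CPM in NHD13 and 94.4 and 20.3 CPM in WT. Pdgfrb, which was higher in NHD13, gave 32.9 and 22.7 CPM of the NHD13 sums and 10.4 and 5.58 CPM of the WT sums. Of the list's genes, 9 were highest in WT library 1. In the other libraries Pdgfra and Lum of that list had 0 counts in NHD13 library 1 and WT library 2, with Col3a1, Lepr and Dcn also at 0 in NHD13 library 1.

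Of the 8 genes, 2 were lower in NHD13 cells by edgeR's quasi-likelihood test at an adjusted p under 0.05 and 0 were higher, where 4.28 percent of all genes tested were called, 2.22 percent lower and 2.07 percent higher. DESeq2, which called 17.1 percent of genes, called 4 of the 8 (Krt7, Krt8, Krt18 and Krt19), and limma-voom, which called 4.17 percent, called 1 (Krt18). The NHD13 libraries lay below both WT libraries for 5 genes and above both for 2, and the groups overlapped for 1. Across all genes tested, 60.4 percent did not overlap between the groups, 30.3 percent with NHD13 lower and 30.1 percent with NHD13 higher. The median log2 fold change of the 8 genes was -1.39, beside 0.00 over all genes tested. In bulk RNA, fewer cells that express a gene and less of its RNA per cell cannot be told apart.

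**Figure D1:**
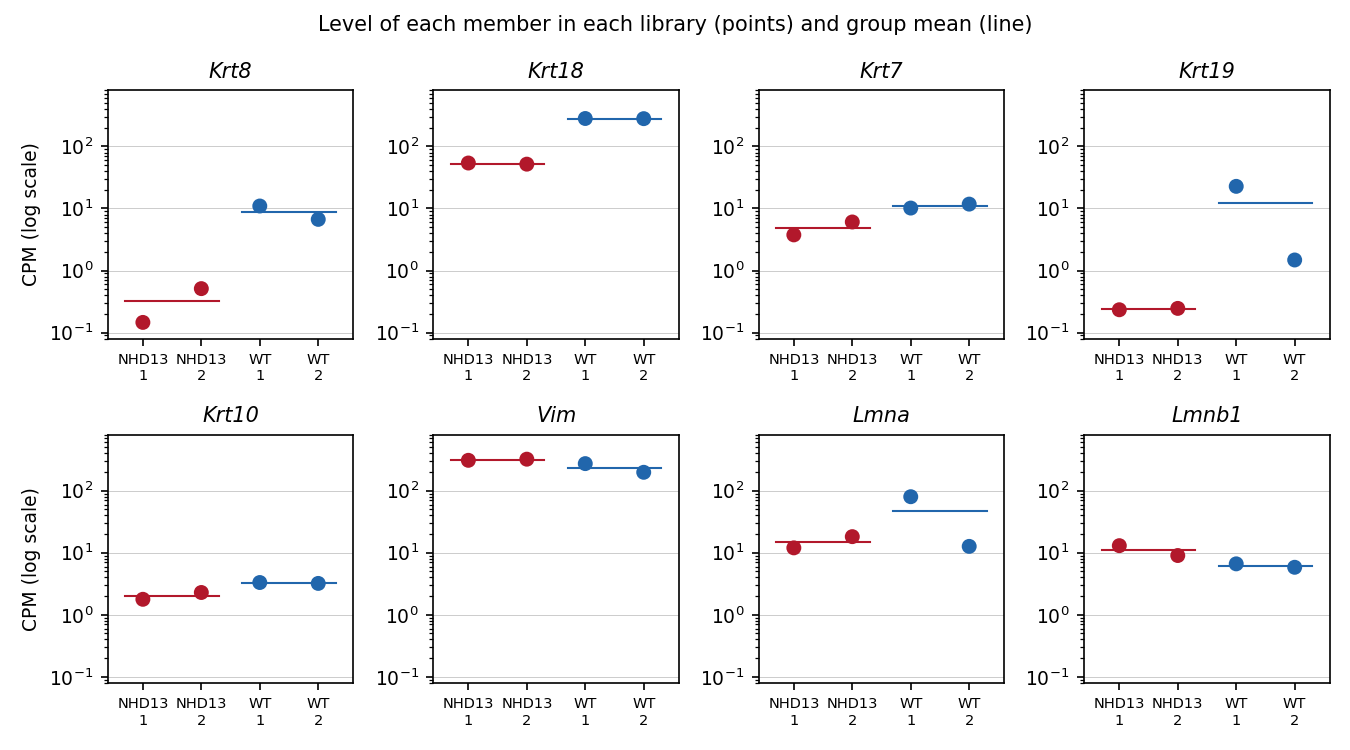
Level of each of the 8 genes in CPM on a log axis, with 1 point per library (NHD13 left, WT right) and a line at each group mean. Krt18 lies at 54.1 and 51.9 CPM in NHD13 and 283 and 281 CPM in WT, while Krt19 and Lmna stand high in WT library 1 alone.

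Krt18 (NM_010664), the type I partner of the simple-epithelial pair, was the most abundant keratin of these cells and the most evenly changed. It had 1860 and 2543 counts in NHD13 and 12301 and 10273 counts in WT, or 54.1 and 51.9 CPM in NHD13 and 283 and 281 CPM in WT. The libraries of each group were nearly level and the groups lay far apart. Krt18 averaged 53.0 ± 1.58 CPM in NHD13 and 282 ± 1.17 CPM in WT (SD, n = 2 each), 5.32-fold lower in NHD13. The log2 fold change was -2.41 ± 0.09 (SE) with an adjusted p of 0.00313, the fifth smallest of all genes tested. WT library 2 held as much Krt18 as WT library 1. The part of cells with other keratins in the Krt18 value of either library was not tested. Without WT library 1 the log2 fold change was -2.41 ± 0.12 and without WT library 2 it was -2.41 ± 0.12. The adjusted p was then 0.0630 and 0.0722, in fits where edgeR called 0 genes of any kind (0 percent), though 2332 and 2605 genes had an unadjusted p below 0.05. DESeq2 without the same libraries called 6.79 and 7.47 percent of genes, Krt18 among them (adjusted p 2.03e-25 and 2.05e-27).

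Krt8 (NM_031170), the type II partner, was scarce in NHD13 cells. It had 5 and 25 counts in NHD13 and 477 and 244 counts in WT, or 0.146 and 0.510 CPM in NHD13 and 10.97 and 6.68 CPM in WT. The groups did not overlap, and within each group the libraries differed more than they did for Krt18. The means were 0.328 ± 0.258 CPM in NHD13 and 8.82 ± 3.03 CPM in WT (SD, n = 2 each), 25.9-fold lower in NHD13. The log2 fold change was -4.69 ± 0.68 with an adjusted p of 0.0389. Summed over the libraries of a group, 30 counts in NHD13 against 721 in WT gave a ratio of WT to NHD13 of 25.0 with an exact 95% counting interval of 17.4 to 37.4, which covers counting error only. The call lay close to the threshold. It was missed without NHD13 library 1 (log2 fold change -4.09, adjusted p 0.0648, with 1.69 percent of genes called), without WT library 1 (-4.31, 0.221) and without WT library 2 (-5.01, 0.173), by limma-voom (0.0503) and with transcripts summed per gene (0.0540, with 2.67 percent of genes called), while DESeq2 gave 4.44e-11. Krt8 overlaps a long non-coding gene on the opposite strand, Gm36026, and has 1 annotated pseudogene, Krt8-ps, so reads from those could be counted with it.

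Krt8 made up a smaller part of the pair in both NHD13 libraries than in either WT library. For every 100 Krt18 counts there were 0.269 and 0.983 Krt8 counts in NHD13 and 3.88 and 2.38 in WT. As a share of the counts of both genes, Krt8 made up 0.268 percent (Wilson 95% interval 0.115 to 0.626) and 0.974 percent (0.660 to 1.43) in NHD13, against 3.73 percent (3.42 to 4.08) and 2.32 percent (2.05 to 2.63) in WT. The groups did not overlap, and the intervals cover counting error only. Per kilobase of transcript, Krt18 was at 36.9 ± 1.10 CPM per kb in NHD13 and 196 ± 0.817 in WT, while its partner Krt8 was at 0.167 ± 0.132 CPM per kb in NHD13 and 4.51 ± 1.55 in WT. The level of Krt18 thus exceeded that of Krt8 in every library, by this scale as by counts.

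The remaining keratins of simple epithelia were lower in NHD13 without passing the test. Krt7 (NM_033073), a type II keratin of ducts, had 129 and 297 counts in NHD13 and 442 and 430 in WT, or 3.75 and 6.06 CPM in NHD13 and 10.2 and 11.8 CPM in WT. The groups did not overlap, and the log2 fold change was -1.16 ± 0.31 with an adjusted p of 0.102 (0.0166 by DESeq2). Krt7 levels were alike in both WT libraries, so the gene did not follow the other keratins that stood high in WT library 1. Without that library its log2 fold change was -1.27 (adjusted p 0.317), and without WT library 2 it was -1.05 (adjusted p 0.357). Krt7 is overlapped on the opposite strand by Gm671, whose reads could be counted with it.

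Krt19 (NM_008471), the keratin that lacks a tail domain, depended on 1 library. It had 8 and 12 counts in NHD13 and 990 and 54 counts in WT, or 0.233 and 0.245 CPM in NHD13, 22.8 CPM in WT library 1 and 1.48 CPM in WT library 2. Both WT libraries lay above both NHD13 libraries, but they differed 15.4-fold from each other. The log2 fold change was -5.65 ± 1.45 with an adjusted p of 0.0961 (0.00352 by DESeq2), and -2.62 ± 0.71 without WT library 1 (adjusted p 0.273). Among all genes tested, 129 (0.869 percent) were at least 5 times as high in WT library 1 as in any other library, and Krt19 was the 1 gene of the 8 among them. The sums of other keratins and stroma genes given above were high in the same library, and their part in the Krt19 value was not tested.

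Krt10 (NM_010660), the epidermal type I keratin, was low in all libraries, with 61 and 112 counts in NHD13 and 144 and 117 in WT. It stood at 1.78 and 2.29 CPM in NHD13 and 3.31 and 3.20 CPM in WT, levels that did not overlap, with a log2 fold change of -0.68 ± 0.35 and an adjusted p of 0.281. An antisense gene, Gm11940, overlaps it.

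Vim (NM_011701) was the most abundant of the 8 genes in NHD13 cells and was not called. It had 10637 and 15822 counts in NHD13 and 11910 and 7249 in WT, or 310 and 323 CPM in NHD13 and 274 and 198 CPM in WT. Both NHD13 libraries lay above both WT libraries, by little in the case of WT library 1. The means were 316 ± 9.42 CPM in NHD13 and 236 ± 53.3 CPM in WT (SD, n = 2 each), and the log2 fold change was 0.42 ± 0.17 with an adjusted p of 0.198. It was 0.67 ± 0.13 without WT library 1, where DESeq2 called it (adjusted p 0.0197) and edgeR did not (0.223), and 0.21 ± 0.13 without WT library 2. In level per kilobase, Vim led in NHD13, at 141 and 147 CPM per kb against 37.7 and 36.1 for Krt18 there. In WT the order was the other way round, with Vim at 125 and 90.5 CPM per kb and Krt18 at 197 and 196. There were 5.72 and 6.22 Vim counts per Krt18 count in NHD13 and 0.968 and 0.706 in WT, which did not overlap.

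**Figure D2:**
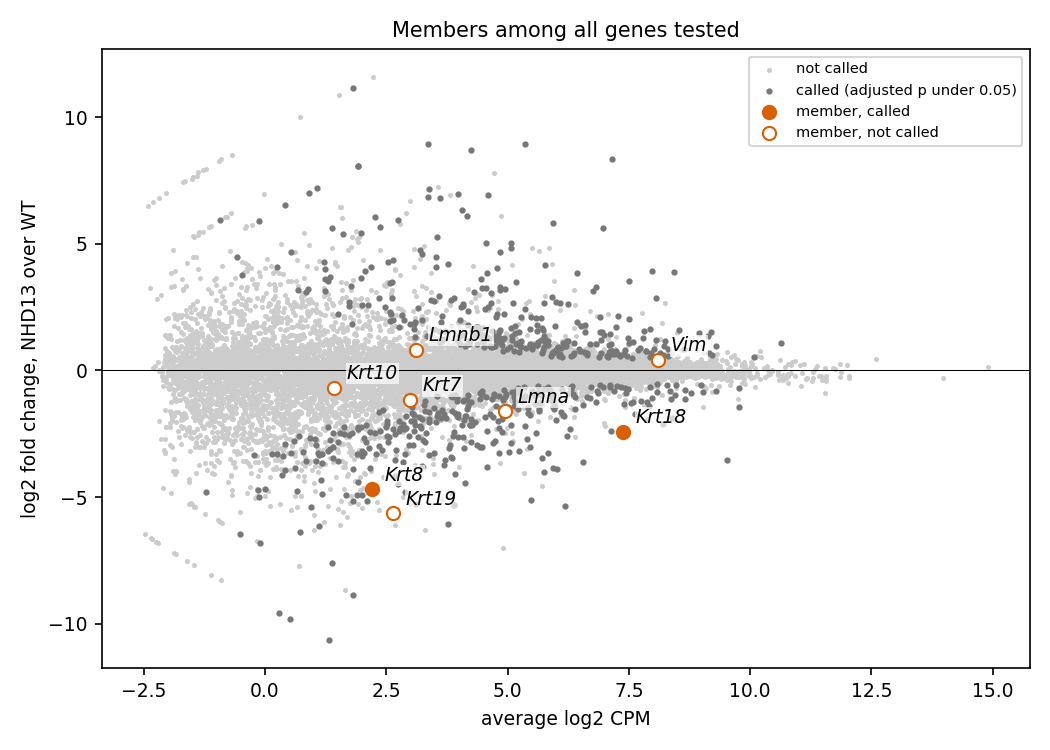
Log2 fold change of NHD13 over WT against average log2 CPM for the 14853 genes tested, with the 8 genes in orange, filled where called. Krt18 lies at -2.41 among the abundant genes, Krt8 at -4.69 and Krt19 at -5.65 among the scarce ones, and Vim at 0.42.

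The lamins did not pass edgeR's test. Lmna (NM_001002011) had 412 and 891 counts in NHD13 and 3485 and 463 counts in WT, or 12.0 and 18.2 CPM in NHD13, 80.1 CPM in WT library 1 and 12.7 CPM in WT library 2. The groups overlapped, since WT library 2 lay between the NHD13 libraries. The log2 fold change of -1.62 ± 0.87 (adjusted p 0.304) became 0.25 ± 0.35 without WT library 1 (adjusted p 0.766), so its sign rested on that library. WT library 1 was also high in the other keratins and in stroma genes, and their part in the Lmna value was not tested. The files hold 3 Lmna transcripts. The one listed as NM_019390 had 62.1 and 64.9 percent of the counts of the transcript used in NHD13 and 65.7 and 54.0 percent in WT.

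Lmnb1 (NM_010721) had 447 and 442 counts in NHD13 and 288 and 213 in WT, or 13.0 and 9.02 CPM in NHD13 and 6.62 and 5.83 CPM in WT. The NHD13 libraries lay above both WT libraries, with a log2 fold change of 0.82 ± 0.27 and an adjusted p of 0.141. Lmnb2, the other B-type lamin gene, was at 43.4 and 45.1 CPM in NHD13 and 34.1 and 29.0 CPM in WT, also without overlap (0.49 ± 0.13, adjusted p 0.105 by edgeR, called by DESeq2). By counts, Lmna made up 17.5 and 25.1 percent of the 3 lamin genes in NHD13, against 66.3 percent in WT library 1 and 26.7 percent in WT library 2.

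**Figure D3:**
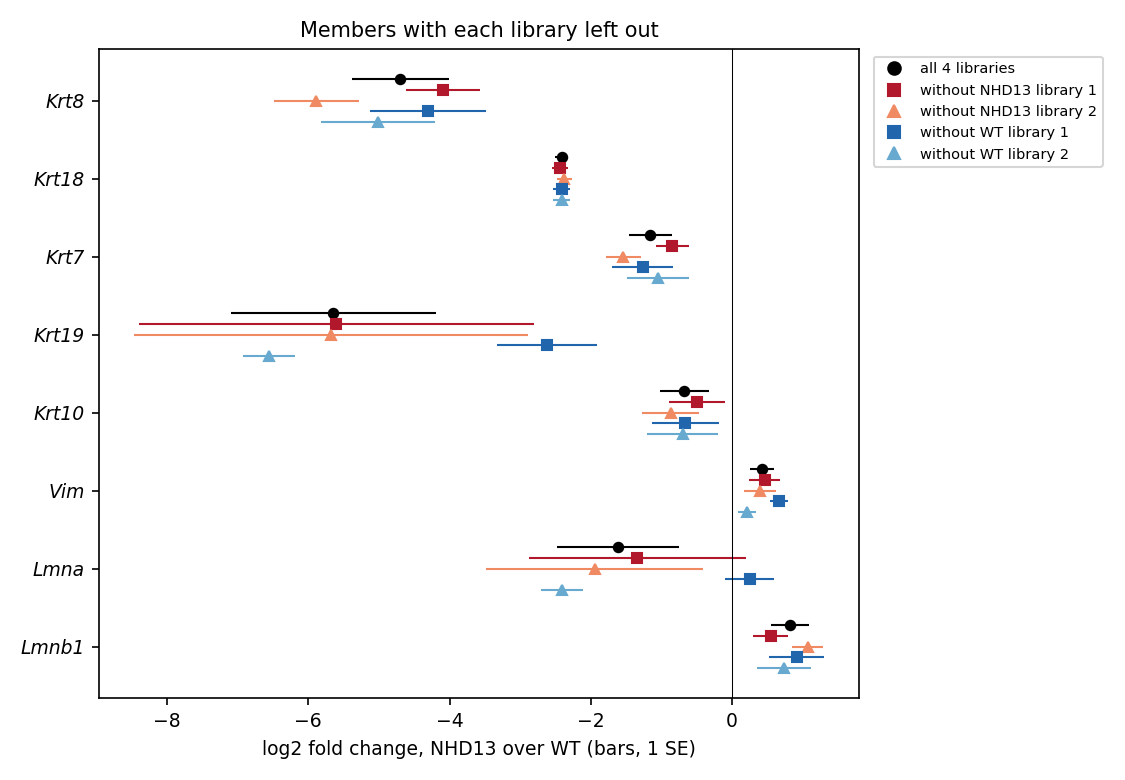
Log2 fold change of NHD13 over WT for each of the 8 genes with all 4 libraries and with each library left out in turn, with bars of 1 standard error. Krt18 stays between -2.43 and -2.38, Krt8 lies between -5.88 and -4.09, and Lmna crosses 0 without WT library 1.

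The wider filament family was largely silent. Of 67 intermediate filament genes in the files, 11 had 0 counts in all libraries and 18 passed the filter, among which 0 were called higher and 2 lower, Krt18 and Krt8. Their median log2 fold change was -0.92, with 10 below 0 and 8 above, beside 0.00 over all genes tested. Without WT library 1 it was -0.21 over 18 genes, beside 0.02 over all genes tested. Both sets include the 8 genes described here, which were chosen by their difference between the groups. The medians and the 2 calls are therefore not independent of that choice. Over all genes tested, edgeR called 2.07 percent higher and 2.22 percent lower. DESeq2, which called 17.1 percent of genes, called 11 of the family. These include Krt14 and Krt42, which did not pass edgeR's filter and were high in WT library 1 alone. The most abundant genes of the family outside the 8 were Nefh, Lmnb2 and Krt42. Nefh, the heavy neurofilament subunit of neurons, was at 76.4 and 66.5 CPM in NHD13 and 44.2 and 55.9 CPM in WT. The groups did not overlap for Nefh (0.51 ± 0.16, adjusted p 0.126 by edgeR, called higher by DESeq2). Krt42 had 1 count in each NHD13 library, 2080 counts in WT library 1 and 1 count in WT library 2, and did not pass the filter.

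Some other keratins followed the same lopsided pattern, and these were chosen after their values were seen. Krt13, of stratified mucosa, had 0 and 4 counts in NHD13, 665 in WT library 1 and 7 in WT library 2. Krt14, of basal epidermis, had 0 and 2 counts in NHD13 and 193 and 8 in WT. Krt20, of gut epithelium, had 0 and 4 counts in NHD13 and 200 and 0 in WT. Krt17 had 0 counts in both NHD13 libraries and 68 and 12 in WT (adjusted p 0.0893 by edgeR, called by DESeq2), and did not pass the filter without WT library 1. Krt1 and Krt15 did not share that pattern. Krt1 had 0 and 1 counts in NHD13 and 27 and 19 in WT (adjusted p 0.0625 by edgeR, called by DESeq2). Krt15 had 1 and 0 counts in NHD13, 2 in WT library 1 and 36 in WT library 2. Krt222, a keratin-related gene, was higher in NHD13, with 46 and 67 counts in NHD13 and 0 and 6 in WT. Its adjusted p was 0.127 by edgeR, and DESeq2 called it higher.

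**Figure D4:**
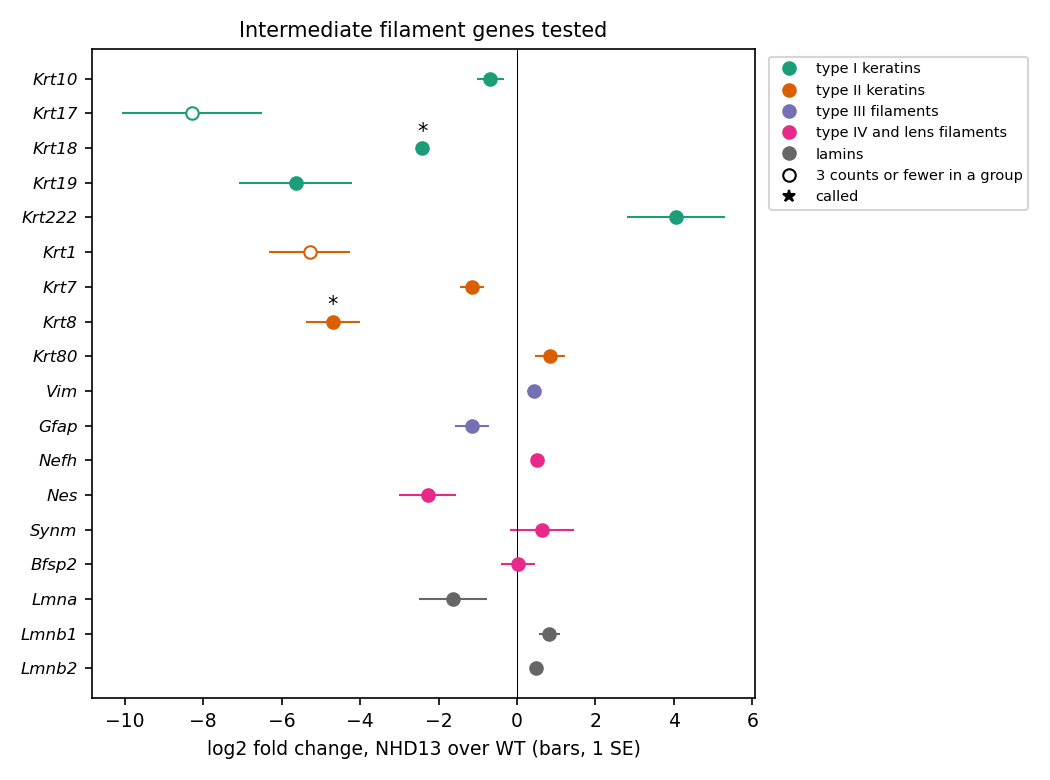
Log2 fold change of NHD13 over WT with bars of 1 standard error for the 18 intermediate filament genes tested, coloured by class, with a star on called genes. Open points have 3 counts or fewer in a group, and their fitted values are no measure of size. Krt18 and Krt8 carry the only stars in this fit.

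Genes for junctions, surface proteins and transcription factors of epithelia were set beside the keratins. Of 20 epithelial genes 17 were tested, 1 called higher and 2 lower, with 12 log2 fold changes below 0 and a median of -1.30. Over all genes tested, edgeR called 2.07 percent higher and 2.22 percent lower. Muc1, an epithelial surface mucin, fell to 0.990 and 1.10 CPM in NHD13, against 7.06 and 4.46 CPM in WT (-2.46 ± 0.39, adjusted p 0.0454). St14, a membrane serine protease, fell to 9.46 and 11.1 CPM in NHD13, against 25.8 and 21.2 CPM in WT (-1.19 ± 0.18, adjusted p 0.0435). Cldn4, a tight-junction claudin, had 0 and 2 counts in NHD13 and 82 and 23 in WT (adjusted p 0.0695, and 0.311 without WT library 1).

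The epithelial list also marked WT library 1, where 15 of its 20 genes were highest. Without that library the list's median log2 fold change was -0.14, with 9 of 17 genes below 0. Muc1 then had -2.09 ± 0.46 (adjusted p 0.244) and St14 -1.05 ± 0.24 (adjusted p 0.253). The list's summed level was 262 and 290 CPM in NHD13 and 407 and 288 CPM in WT, with more from Spint2 than from any other gene of the list. Cdh1, the E-cadherin gene, had 14 and 49 counts in NHD13, 2071 in WT library 1 and 33 in WT library 2. Ehf, an epithelial transcription factor gene, was at 0.00 and 0.816 CPM in NHD13, 27.5 CPM in WT library 1 and 0.0547 CPM in WT library 2. In WT library 2, Cdh1 and Ehf were near the levels of the NHD13 libraries. Others of the list, such as Cldn4, Muc1, St14 and Ocln, were above both NHD13 libraries there, while Cldn7 and Epcam lay between them. Krt18 was at 281 CPM and Krt8 at 6.68 CPM in WT library 2, above both NHD13 libraries. The part of epithelial cells in these values was not tested.

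**Figure D5:**
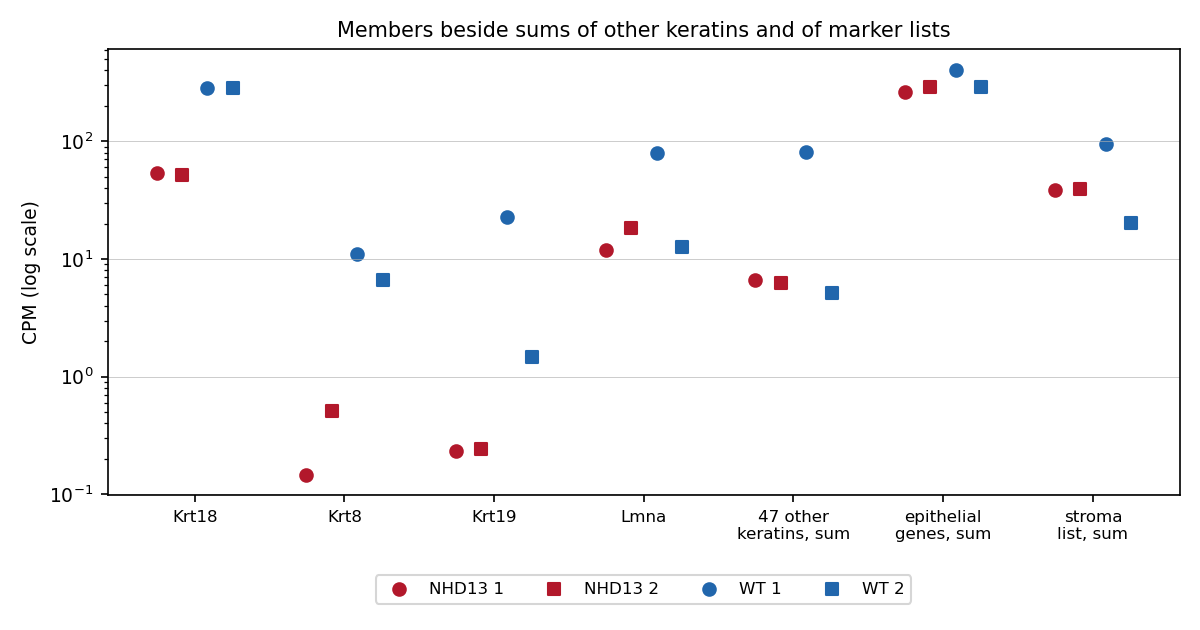
CPM on a log axis in each library for Krt18, Krt8, Krt19 and Lmna, and for the sums of 47 other keratins, 20 epithelial genes and 12 stroma genes. WT library 1 is high in Krt19, Lmna and the 47 keratins (80.3 CPM), while Krt18 is level between the WT libraries.

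Proteins that anchor filaments to junctions and to each other were not called by edgeR. Of 12 linker and desmosome-plaque genes tested, 0 passed by edgeR and 7 had an unadjusted p under 0.05, as did 26.8 percent of all genes tested. Their median log2 fold change was 0.10. Of the 14 genes of this list in the files, DESeq2 called 4 higher and 3 lower, while limma-voom called 0. Over all genes, DESeq2 called 7.89 percent higher and 9.25 percent lower. The 3 lower include Ppl, which did not pass edgeR's filter. Ppl had 3 and 12 counts in NHD13, 429 in WT library 1 and 3 in WT library 2. Dsp encodes desmoplakin, which ties keratin filaments to desmosomes. It was at 135 and 86.9 CPM in NHD13, 7.15 CPM in WT library 1 and 0.547 CPM in WT library 2, so both NHD13 libraries lay above both WT libraries (4.82 ± 1.06, adjusted p 0.0772). Without WT library 1 its log2 fold change was 7.65 ± 0.52 (adjusted p 0.0990). Pkp3, a plakophilin gene, was at 32.2 and 24.4 CPM in NHD13 and 16.9 and 15.3 CPM in WT (0.81 ± 0.19, adjusted p 0.0794). Pkp2, its paralogue, was at 1.22 and 2.06 CPM in NHD13 and 6.23 and 4.95 CPM in WT (-1.76 ± 0.40, adjusted p 0.0775). Macf1, a spectraplakin that links filament systems, had a log2 fold change of 0.56 ± 0.15 (adjusted p 0.0965).

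Among 17 lamina partners and lamin-processing genes, 2 were called higher and 0 lower, with a median of 0.03. Over all genes tested, edgeR called 2.07 percent higher and 2.22 percent lower. Lbr, the lamin B receptor of the inner nuclear membrane, rose to 764 and 638 CPM in NHD13, against 434 and 437 CPM in WT (0.69 ± 0.11, adjusted p 0.0471). Tmpo, which encodes lamina-associated polypeptides, rose to 79.3 and 79.7 CPM in NHD13, against 53.4 and 52.7 CPM in WT (0.58 ± 0.09, adjusted p 0.0437). Narf, a binding partner of prelamin A, was at 90.6 and 89.3 CPM in NHD13 and 41.3 and 61.4 CPM in WT (0.81 ± 0.20, adjusted p 0.0928). Sun2, which links the lamina to the cytoskeleton, had a log2 fold change of 0.52 ± 0.19 (adjusted p 0.178). The calls of Lbr, Tmpo, Muc1 and St14 lay close to the threshold. All 4 were missed without either WT library, where edgeR called 0 genes, and with transcripts summed per gene (adjusted p 0.0669 for Lbr, 0.0505 for Tmpo, 0.0585 for Muc1 and 0.0573 for St14). Muc1 was also missed by limma-voom (0.0566). Without NHD13 library 1 the adjusted p was 0.0966 for Lbr, 0.113 for Tmpo, 0.138 for Muc1 and 0.129 for St14, and without NHD13 library 2 it was 0.0653 for Tmpo, 0.0747 for Muc1 and 0.0583 for St14. Lbr also missed it with DESeq2 size factors (0.0503), and Tmpo, Muc1 and St14 with library totals only (up to 0.0536).

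Of 10 regulators of the epithelial-mesenchymal transition 7 were tested and 0 were called by edgeR, with 3 at an unadjusted p under 0.05, beside the same 26.8 percent of all genes. Their median log2 fold change was -0.67, and 0.21 without WT library 1. Zeb2 alone was called by DESeq2, and limma-voom called 0. Zeb2, a repressor of epithelial genes, was at 154 and 124 CPM in NHD13 and 89.9 and 97.3 CPM in WT (0.57 ± 0.14, adjusted p 0.0836). Twist1 had 3 counts in each NHD13 library and 26 and 20 in WT (adjusted p 0.0843), and Ovol2, an epithelial factor, had 3 and 7 counts in NHD13 and 47 and 16 in WT (adjusted p 0.119). Zeb1 had a log2 fold change of 0.19 ± 0.13 (adjusted p 0.418).

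Markers of other cells differed between libraries of a group. Late granulocyte genes summed to 2857 and 378 CPM in NHD13 and 329 and 284 CPM in WT. T and NK cell genes summed to 3.93 and 98.9 CPM in NHD13 and 4.44 and 2.30 CPM in WT, with Cd8a at 0 in NHD13 library 1 and WT library 2. Macrophage and monocyte genes summed to 1067 and 319 CPM in NHD13 and 412 and 426 CPM in WT. More of that sum came from Lyz2 (1003 and 277 CPM in NHD13, 395 and 409 CPM in WT) than from any other gene. Of the 8 genes of this list tested, edgeR called 1 higher, Cd68, and 0 lower, where it called 2.07 percent of all genes higher. Cd68 was at 35.5 and 31.8 CPM in NHD13 and 10.5 and 10.6 CPM in WT (adjusted p 0.0151). Mast cell and basophil genes summed to 139 and 118 CPM in NHD13 and 26.1 and 8.05 CPM in WT. Within that list Ms4a2 was at 111 and 4.45 CPM in NHD13 and Cpa3 at 21.3 and 107 CPM. Fcer1a was called lower by edgeR, with 0 and 1 counts in NHD13 and 40 and 62 in WT (adjusted p 0.0444). Endothelial genes summed to 153 and 263 CPM in NHD13 and 314 and 324 CPM in WT. B cell genes summed to 89.7 and 96.9 CPM in NHD13 and 73.6 and 80.8 CPM in WT. Erythroid genes summed to 199 and 299 CPM in NHD13 and 212 and 208 CPM in WT, and megakaryocyte genes to 387 and 467 CPM in NHD13 and 448 and 403 CPM in WT. By edgeR, 1 of 5 B cell genes and 1 of 7 erythroid genes tested were called higher. Called lower were 1 of 6 megakaryocyte genes and 1 of 5 mast cell and basophil genes tested. Over all genes tested, edgeR called 2.07 percent higher and 2.22 percent lower. The late granulocyte, T and NK cell and endothelial lists had 0 calls by edgeR and by limma-voom. In these lists DESeq2 called Mmp9, Cd3g and Gzmb higher and the endothelial genes Emcn and Kdr lower. Over all genes, DESeq2 called 7.89 percent higher and 9.25 percent lower. Krt18 and Vim were at nearly the same level in both NHD13 libraries, while Krt8 was 3.51 times as high in NHD13 library 2 as in NHD13 library 1. Of the sums in this paragraph, the endothelial one was lower in both NHD13 libraries than in both WT libraries, as Krt18 was. The late granulocyte, mast cell and basophil, and B cell sums were higher in both, as Vim was. The part of these cells in the Krt8, Krt18 and Vim values was not tested.

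The genes nearest in pattern to Krt8, Krt18 and Vim were sought among the 11422 genes whose average log2 CPM reached 1, by Euclidean distance between log2 CPM values centred on each gene's mean over the 4 libraries. Nearest to Krt18 was Dnah1, an axonemal dynein heavy chain gene, at a distance of 0.065, with 3.06 and 2.98 CPM in NHD13 and 16.7 and 17.1 CPM in WT. Tlr3, a receptor for double-stranded RNA, followed at 0.099 and Il1rl2, an interleukin receptor gene, at 0.125. Nearest to Krt8 were Pdgfc, a growth factor gene, at 0.496, Evc2 at 0.555 and Ripply3 at 0.578. Nearest to Vim were Mir7082 at 0.050, Ubap2 at 0.054 and Gltscr1 at 0.056, and none of the 3 was called by edgeR. These distances rest on 4 libraries and are descriptions.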

How the data were processed

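Trizol-extracted RNA was amplified by SMARTer chemistry for paired-end HiSeq reads, according to the labels' protocols. Bowtie 0.12.2 and build mm9 are named by the submitters' processing notes. Not given in the sources used here: the counting program, its strand setting and its handling of multiply aligned reads. The deposited values are raw counts per RefSeq transcript, 33018 rows per library, with no normalisation.

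Each symbol was represented by its transcript of highest total. The test was the robust quasi-likelihood fit of edgeR 4.0.16 in R 4.3.3, with default filter, TMM scaling and Benjamini-Hochberg adjustment over 14853 genes. Calls needed an adjusted p under 0.05. CPM use TMM-scaled totals, and an SE is the log2 fold change divided by the root of F. Libraries of one group were not duplicates, since their counts differed beyond sampling noise. Lengths came from GENCODE M21 transcripts matched by RefSeq accession for all 8 genes, and SMARTer coverage may be uneven along them.

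The members and lists were chosen with earlier results of these data known. Named genes were the 8 members, the 3 most abundant further filament genes, up to 4 genes of each list by adjusted p, and the 3 nearest in pattern to Krt8, Krt18 and Vim, with predicted names left out. On simulated counts of this design the share of false calls was above the threshold set, and many of the smaller changes were missed. Further genes are named by values already seen. The 1 epithelial gene called higher is not reported here.

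Alternatives were other scalings and filters, DESeq2 1.42.0, limma-voom (limma 3.58.1), a non-robust fit, the replicate number as a block, summed transcripts and leaving out each library. A crossed block and DESeq2 without each WT library were added after seeing the data.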

Additional observations from a re-analysis of the deposited data

How the results depend on the processing

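The number of genes called over all genes was 636. It was 1138 (5.47 percent) without a filter on low counts, 1066 (8.24 percent) with a stricter filter (1 CPM in both NHD13 or both WT libraries), 402 with transcripts summed and 2606 by DESeq2, and ranged from 0 to 990 when a library was left out of edgeR and from 994 to 1131 when a WT library was left out of DESeq2. Of the 8 genes 2 were called. The number was 1 with transcripts summed or by limma-voom and 4 by DESeq2, ranged from 0 to 2 with a library left out of edgeR, and was 3 and 4 for DESeq2 without WT library 1 and WT library 2. Of the filament family 2 were called. The number was 1 with transcripts summed or by limma-voom, 3 without a filter (Krt17 joining) and 11 by DESeq2, ranged from 0 to 2 with a library left out of edgeR, and was 3 and 10 for DESeq2 without WT library 1 and WT library 2.

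Krt18 kept its direction in all 16 alternatives, from -2.43 to -2.38, and missed the threshold in 2, without either WT library. Krt8 kept its direction in all 16, from -5.88 to -4.09, and missed the threshold in 6. Krt10 and Lmnb1 were not called in any of the 16. Lmna changed sign without WT library 1, to 0.25 by edgeR and 0.24 by DESeq2. It ranged from -2.41 to 0.25 with a library left out of edgeR, and DESeq2 called it without WT library 2. With a library left out, the spread comes from the intact group, and the lone library is assumed to vary alike.

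The replicate numbers do not pair the libraries by any label. Deviations of same-numbered libraries correlated at -0.206 across genes. With the number as a replicate block edgeR called 107 genes (0.72 percent), 1 of the 8 and 1 of the family (Krt18 in each case), and Krt8 had -4.80 with an adjusted p of 0.0937. The calls of Lbr, Tmpo, Muc1 and St14 were also lost under the block (adjusted p 0.102, 0.109, 0.108 and 0.105). With the pairing crossed, edgeR called 647 genes.

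Krt8 and Krt19 in NHD13 rest on 30 and 20 counts, so their levels there are known only to within wide counting error.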
